A study of Mus musculus with 54 samples.

Results

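Primitive endoderm is the epithelium that forms beside the epiblast in the mouse blastocyst and later gives rise to the visceral and parietal endoderm of the yolk sac. It was followed here through 8 of its regulators in mouse embryonic stem cells that were given retinoic acid. The 8 genes were taken by name: the transcription factors Gata4, Gata6, Sox7, Sox17, Foxa2 and Hnf4a, the receptor gene Pdgfra and the endocytic adaptor gene Dab2. Their Ensembl identifiers were mapped to mouse symbols, which found all 8 among the 55487 gene identifiers of the count files. The choice names genes and sets no threshold on a measured value, but it was made with earlier results of these data known.

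As background, FGF signalling through the ERK kinases drives cells of the inner cell mass towards primitive endoderm, with Gata6 as the factor that opens the programme and Gata4, Sox17 and Sox7 following. Polycomb repressive complex 2 (PRC2) places trimethylation on lysine 27 of histone H3 through its catalytic subunit EZH1 or EZH2, with SUZ12 as a core subunit, and developmental regulators with CpG-rich promoters are its typical targets in embryonic stem cells. None of the 8 genes is restricted to primitive endoderm: Pdgfra is also expressed in mesenchyme, Gata4 and Gata6 in heart, Foxa2 and Sox17 in definitive endoderm.

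On GRCm38 (mm10), with GENCODE gene models, Gata4 (ENSMUSG00000021944) lies at chr14:63198922-63271692 on the minus strand, and Gata6 (ENSMUSG00000005836) at chr18:11052064-11085635 on the plus strand. Sox7 (ENSMUSG00000063060) lies at chr14:63943673-63950732 on the plus strand and Sox17 (ENSMUSG00000025902) at chr1:4490931-4497354 on the minus strand. Foxa2 (ENSMUSG00000037025) lies at chr2:148042877-148046969 on the minus strand and Hnf4a (ENSMUSG00000017950) at chr2:163506808-163572910 on the plus strand. Pdgfra (ENSMUSG00000029231) lies at chr5:75152292-75198215 and Dab2 (ENSMUSG00000022150) at chr15:6299788-6440712, both on the plus strand. Gata6, Sox17, Hnf4a, Pdgfra and Dab2 overlap an annotated gene on the other strand (for Hnf4a, Hnf4aos), and the strand setting of the authors' counting is not given in the sources used here, so tags of such partners cannot be told apart from theirs.

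The data were 54 libraries of 3′ tags made from total RNA of mouse embryonic stem cell lines, in 18 groups of 3 libraries. By the labels of the Ezh2 series, Ezh1-/-;Ezh2-/- cells of 129P2/Ola origin carried an empty PiggyBac vector (labelled EV), PiggyBac-Ezh2 (WT), or PiggyBac-Ezh2 with the substitutions K510R, K514R and K515R (amKR). The substitutions replace lysines that PRC2 methylates on itself. The Suz12 series consisted of SUZ12-/- cells with an empty PiggyBac vector (EV), SUZ12 (WT) or SUZ12-deltadim (ddim). Libraries were made on day 0, in maintenance medium with LIF, CHIR99021 and PD0325901 (an inhibitor of the kinase upstream of ERK), and on days 1 and 4 in 0.1 µM retinoic acid with those 3 components left out. PiggyBac vectors integrate into the genome, and the labels do not say whether a line is a clone or a pool, nor whether the replicates were separate cultures, so p-values measure only the spread between these libraries, which may be technical. The Ezh2 and Suz12 series start from different parent cells and were fitted separately, so differences between them are given as values only, and transgene and parent line cannot be told apart as their source.

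RefSeq promoter sequence on GRCm38.p6 was held for 4 of the 8 genes (Foxa2, Hnf4a, Pdgfra and Dab2), with 8 annotated starts among them. Sequence from the 200 bases before a start is shown for 6 of these, since CpG density is the feature by which PRC2 targets are usually told: the Foxa2 start at the gene's 5′ end and one further in, both Hnf4a starts, the Pdgfra start and the upstream Dab2 start. Bases that lie in an annotated exon of the gene models were left out, which cut the upstream Hnf4a window to 151 bases and the upstream Dab2 window to 199. Capitals mark CpG dinucleotides, and all are written 5′ to 3′ on the gene's strand.
Foxa2, 5′ end of the gene, chr2:148046970-148047169 (minus strand): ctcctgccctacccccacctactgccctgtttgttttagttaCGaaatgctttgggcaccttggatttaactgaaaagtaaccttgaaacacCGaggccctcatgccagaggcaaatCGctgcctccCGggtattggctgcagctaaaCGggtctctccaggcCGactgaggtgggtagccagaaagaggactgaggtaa
Foxa2, start 1021 bases into the gene, chr2:148045949-148046148 (minus strand): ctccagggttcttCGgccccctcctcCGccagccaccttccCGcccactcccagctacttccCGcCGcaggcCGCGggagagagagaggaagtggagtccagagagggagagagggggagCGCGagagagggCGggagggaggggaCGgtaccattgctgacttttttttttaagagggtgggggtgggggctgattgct
Hnf4a, upstream start, chr2:163506657-163506807 (plus strand): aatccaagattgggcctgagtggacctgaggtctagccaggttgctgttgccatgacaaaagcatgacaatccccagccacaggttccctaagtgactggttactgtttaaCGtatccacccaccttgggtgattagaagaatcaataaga
Hnf4a, downstream start, chr2:163546955-163547154 (plus strand): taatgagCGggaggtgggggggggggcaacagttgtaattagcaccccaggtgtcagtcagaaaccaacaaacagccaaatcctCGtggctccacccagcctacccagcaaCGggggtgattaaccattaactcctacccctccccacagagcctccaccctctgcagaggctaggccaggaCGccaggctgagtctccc
Pdgfra, chr5:75152051-75152250 (plus strand): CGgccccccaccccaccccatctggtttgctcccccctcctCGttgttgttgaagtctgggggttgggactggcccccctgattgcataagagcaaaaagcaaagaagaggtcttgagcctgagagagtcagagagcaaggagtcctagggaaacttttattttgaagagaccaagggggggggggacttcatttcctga
Dab2, upstream start, chr15:6299589-6299787 (plus strand): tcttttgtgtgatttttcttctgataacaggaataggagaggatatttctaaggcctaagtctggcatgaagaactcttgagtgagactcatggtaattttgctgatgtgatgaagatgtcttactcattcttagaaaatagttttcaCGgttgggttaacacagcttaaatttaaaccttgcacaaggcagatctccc
The window before the downstream Dab2 start is not shown because 150 of its 200 bases lie in an annotated exon. CpG and motif counts below are over the full 200 bases, exon bases included. Over 32851 RefSeq promoter windows of the same length, the quartiles of the CpG count were 2, 5 and 13. Pdgfra had 2 CpG dinucleotides, the upstream and downstream Hnf4a starts 3 and 4, and the Foxa2 start 6, with 11 and 10 at its other 2 annotated starts. The Dab2 starts had 2 CpG at the 5′ end of the gene and 16 at the start 86960 bases further in, a count that 81.8% of all windows did not exceed. The GATA motif core GATAA was found on either strand in 1 Foxa2 window, in the upstream Hnf4a window and in the upstream Dab2 window, and in 18.1% of all windows. The Foxa2 match lay in the Foxa2 window that is not shown, and the Hnf4a match among the bases not printed. The SOX core ACAAT was found in the upstream Hnf4a window and in 22.8% of all windows, while the FOX string TGTTTAC (2.51% of all windows) and the nuclear receptor string AGGTCA (11.4%) were in none of the 8. None of these strings contains another, on either strand. Tags from the 3′ end do not tell which start was used.

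Gene counts per library were 4223028 to 5111007 in the Ezh2 series and 3801446 to 4462441 in the Suz12 series, so that 3 counts in a library equalled 0.587 to 0.710 and 0.672 to 0.789 counts per 1000000 gene counts of the library (CPM). Levels below are CPM of gene counts after scaling by effective library size, changes are log2 with their standard error (SE), and a call is an adjusted p under 0.05 in edgeR's quasi-likelihood test with Benjamini-Hochberg adjustment over all genes tested. On day 0 the summed level of pluripotency and epiblast markers was 6651 to 7070 CPM over the lines of the Ezh2 series (means of 3 libraries) and 4261 to 4610 CPM over those of the Suz12 series. The line labels were checked first. Suz12 stood at 68.1 CPM in EV against 439 in WT and 461 in ddim on day 0 of its series. Ezh2 tags stood at 183 CPM in EV, 88.3 in WT and 117 in amKR on day 0, and since a 3′ tag outside a deleted exon checks nothing, they do not tell the lines apart. Eed, another core subunit, was at 116 to 189 CPM in the Ezh2 series on day 0 and, over the Suz12 lines, at 286.5 to 313 CPM (group means). Ezh1 went against a shared genotype: it was 9.29, 6.37 and 5.58 CPM in EV on days 0, 1 and 4 and at most 0.289 CPM in WT and amKR. Hprt showed the same split, with 25.8, 31.2 and 29.3 CPM in EV and at most 1.18 CPM in WT and amKR. The empty-vector cells of the Ezh2 series are therefore called the line labelled EV, and its differences from WT and amKR may hold differences between parent cells, which cannot be told apart from the missing transgene. Whether that line lacks EZH1 and EZH2 was not tested.

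The members' time courses came first, in the WT line of the Ezh2 series. The 8 genes were at or below 3.46 CPM on days 0 and 1 (means of 3 libraries) and higher on day 4. A gene was called present on the first day on which all 3 libraries reached 1 CPM. By that rule Gata6 and Dab2 were present in WT from day 1 and the other 6 genes from day 4. In amKR Gata6 was present from day 1 and the other 7 from day 4. Dab2 lay close to the cut, at means of 1.55 CPM in WT and 1.45 CPM in amKR on day 1, with overlapping libraries. In WT its mean was already 1.05 CPM on day 0. In the line labelled EV, Gata4, Gata6 and Dab2 were present on day 0, Sox7, Sox17, Foxa2 and Pdgfra from day 1, and Hnf4a from day 4. All 3 lines of the Suz12 series had every member present by day 1, and Gata6 on day 0. Dab2 was present on day 0 in EV and ddim of that series, and Gata4 in ddim.

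**Figure D1:**
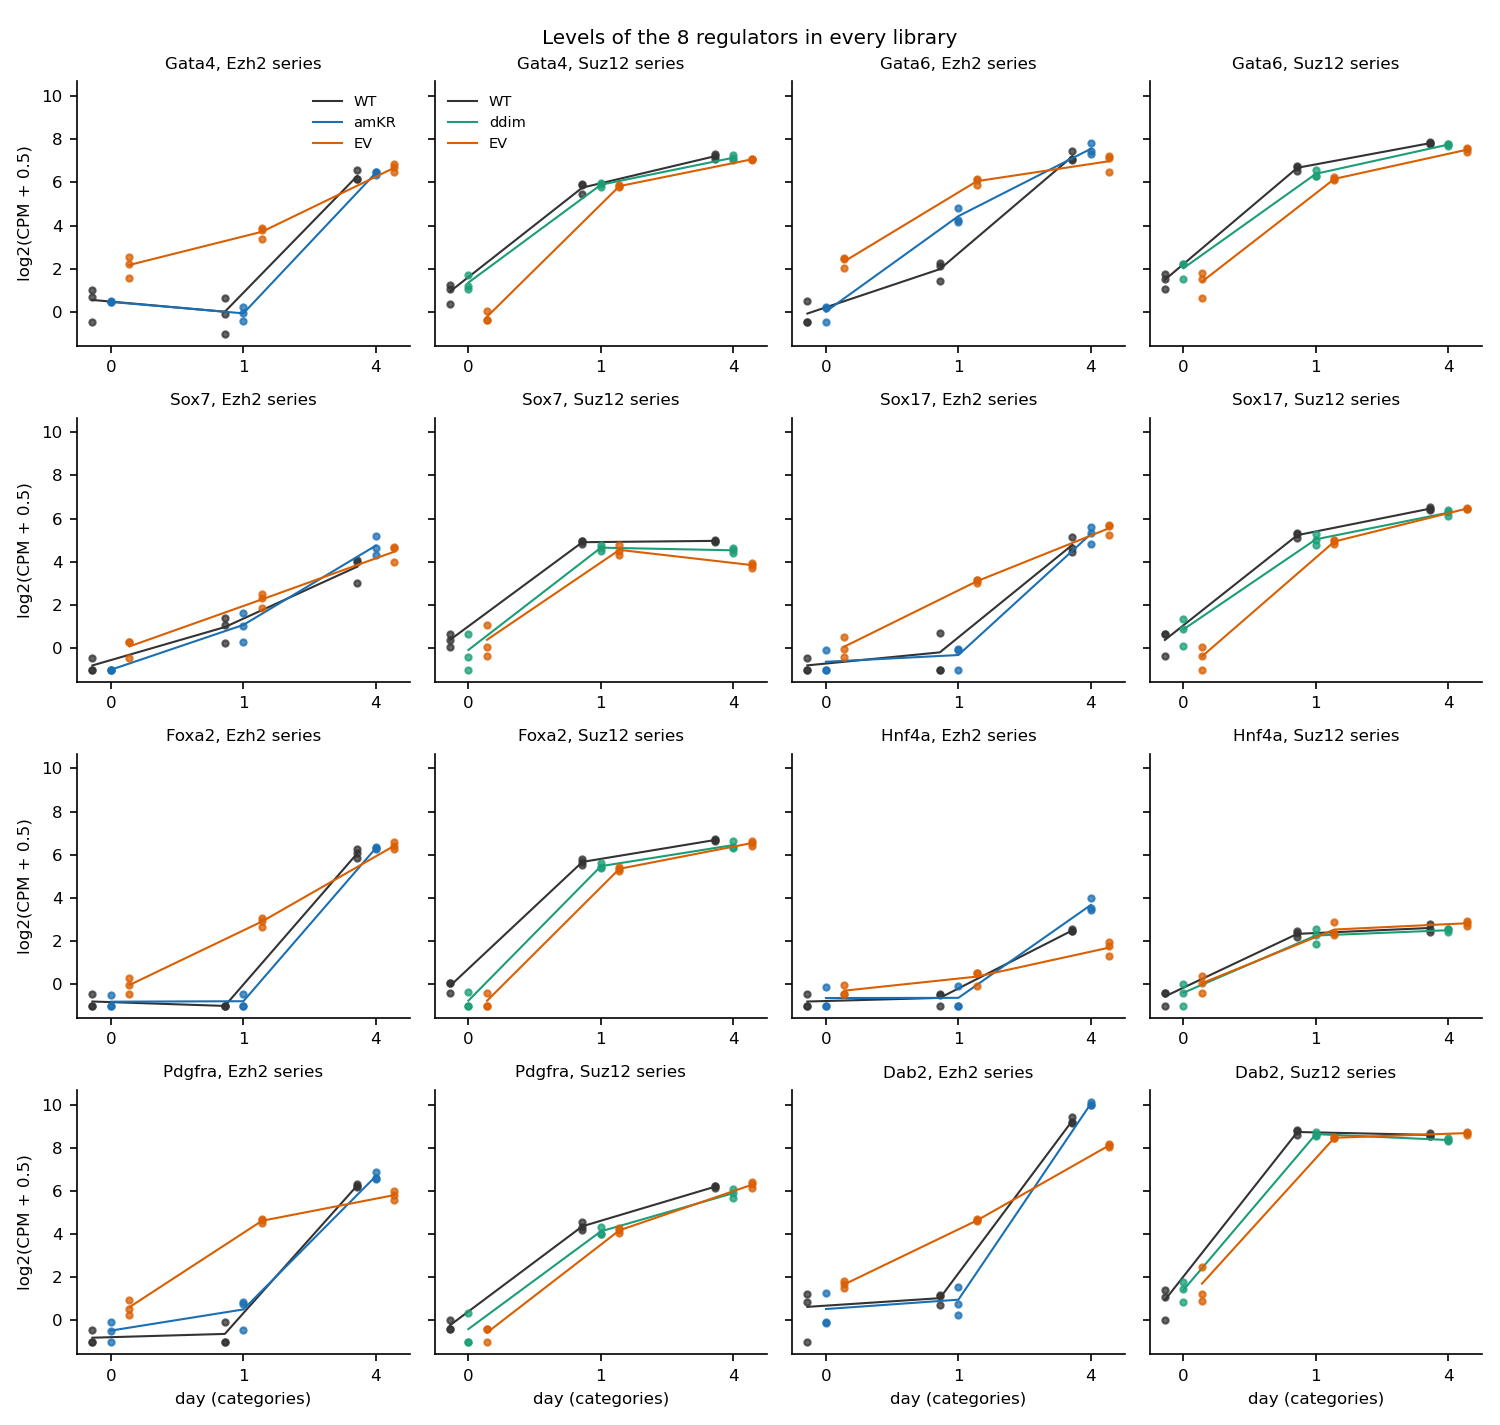
Level of each of the 8 genes (from CPM) on days 0, 1 and 4 in the 6 lines; points are single libraries and lines join the means of 3. In the Ezh2 series the line labelled EV is already above the others on day 1, while in the Suz12 series the 3 lines rise together by day 1.

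Between days 0 and 1 in the WT line of the Ezh2 series, Gata6 and Sox7 were called higher among the 8, against 22.5% of all genes tested. Gata6 went from 0.223, 0.227 and 0.904 CPM to 2.25, 4.31 and 3.81 CPM, a log2 change of 2.87 ± 0.58 (SE, n = 3 per day, adjusted p = 0.000169). The day 1 libraries all lay above the day 0 libraries. Sox7, a SOXF factor of the endoderm, was held by 1 count on day 0 and reached 1.57, 2.15 and 0.673 CPM on day 1, a ratio of 19.6 with a 95% counting interval of 3.14 to 814 (adjusted p = 0.00336). With only the compared libraries fitted, 0 of the 8 were called from day 0 to day 1, where members fall under the low-count filter. From day 1 to day 4 all 8 genes were called higher in WT, against 30.2% of all genes. Log2 changes were 3.14 for Sox7, 5.39 for Gata6, 6.09 for Sox17, 7.17 for Gata4 and 8.60 for Dab2. Foxa2, a forkhead factor that opens endoderm enhancers, had no count in the 3 WT libraries of day 1 and was at least 301-fold higher on day 4, with 3 counts over the group as the floor. Pdgfra and Hnf4a rested on 2 counts each on day 1, and their ratios were 515 (counting interval 142 to 4261) and 34.9 (9.33 to 293).

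In amKR, Gata6, Sox7 and Pdgfra were called higher on day 1 than on day 0, against 24.7% of all genes. Gata6 rose by 5.30 ± 0.40 on the log2 scale (adjusted p = 1.28e-11), from 0.219, 0.680 and 0.648 CPM to 18.8, 17.6 and 27.2 CPM. Sox7 had no count on day 0 and was at least 7.37-fold higher on day 1 (adjusted p = 0.000549). Pdgfra rested on 3 counts on day 0, with a ratio of 4.21 (counting interval 1.14 to 23.3, adjusted p = 0.0351), and its call was lost without replicate 1 or 3 of day 0 or replicate 2 or 3 of day 1, with an adjusted p of up to 0.153. With only the compared libraries fitted, 1 of the 8 was called from day 0 to day 1 in amKR. From day 1 to day 4 all 8 were called higher (30.9% of all genes). In the line labelled EV, 7 of the 8 were called higher on day 1 than on day 0 (23.9% of all genes): log2 changes ran from 1.64 for Gata4 to 4.51 for Pdgfra, and Hnf4a was at 1.22 with an adjusted p of 0.206. From day 1 to day 4 all 8 were called higher there too (30.2% of all genes), from 0.93 for Gata6 to 3.60 for Foxa2.

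The line labelled EV was then compared with WT in the Ezh2 series, by label an empty vector against the wild-type transgene. The Ezh1 and Hprt tags given above also part these lines, so parent cells and transgene cannot be told apart here. Of the 8 genes, 4 on day 0 and 7 on day 1 were higher in EV, while on day 4 Sox17 was higher and Dab2 lower. On day 0, 4 of the 8 genes were called higher in EV, against 17.4% of all genes tested: Gata4, Gata6, Pdgfra and Dab2. With only the compared libraries fitted, 2 of the 8 were called on day 0. Dab2 was then not called (adjusted p = 0.133) and another of these genes fell under the low-count filter. On day 1, 7 of 8 were called higher, against 13.5% of all genes, with Hnf4a the exception (7.63% of all genes were called lower). The 3 EV libraries lay above the 3 WT libraries for all 8 genes on each of these days, as they did for 22.6% and 22.8% of all genes.

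Of the GATA factors, Gata6 stood at 68.1, 71.2 and 59.4 CPM in EV against 2.25, 4.31 and 3.81 CPM in WT on day 1. EV libraries were all far above WT, by 4.25 ± 0.26 on the log2 scale (adjusted p = 4.11e-13). Day 0 showed the same direction at lower levels, 3.65, 5.18 and 4.94 CPM against 0.223, 0.227 and 0.904 CPM, a difference of 3.28 ± 0.55 (adjusted p = 4.98e-05). Gata4, which acts after Gata6 in the programme, was at 10.1, 14.5 and 13.4 CPM in EV against 0, 1.08 and 0.449 CPM in WT on day 1 (4.54 ± 0.41, adjusted p = 1.39e-09). On day 0 Gata4 was at 2.44, 5.42 and 4.24 CPM in EV against 1.56, 0.227 and 1.13 CPM in WT (2.02 ± 0.44, adjusted p = 0.000977). By day 4 neither differed by the test: Gata4 was 102 ± 13.5 CPM against 78.4 ± 13.2 (SD, n = 3 each, adjusted p = 0.147) and Gata6 126 ± 32.4 against 147 ± 24.2 (adjusted p = 0.433), and the libraries of the lines overlapped for both.

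Sox17, the SOXF factor needed to maintain primitive endoderm, was at 7.49, 8.36 and 8.38 CPM in EV on day 1 and 0, 0 and 1.12 CPM in WT. All its EV libraries were above WT, by 4.35 ± 0.57 (adjusted p = 1.5e-06). Sox7 differed less on that day, with 5.15, 3.16 and 4.55 CPM against 1.57, 2.15 and 0.673 CPM (1.52 ± 0.48, adjusted p = 0.0246). That call was lost without EV replicate 1 or 3 or WT replicate 1 or 3, with an adjusted p of up to 0.142. On day 4 Sox17 was still called higher in EV, against 9.74% of all genes called higher and 8.24% called lower. Its levels were 52.2, 37.7 and 50.2 CPM against 34.9, 24.6 and 21.5 CPM (0.79 ± 0.25, adjusted p = 0.03), with no overlap, and the call was lost without EV replicate 1 or 3 or WT replicate 2 or 3 (adjusted p up to 0.136). Sox7 on day 4 was 21.7 ± 5.60 CPM in EV against 13.2 ± 4.78 CPM in WT (adjusted p = 0.0923, and 0.0343 with no filter on low counts).

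Foxa2 was at 7.25, 5.88 and 7.90 CPM in EV on day 1 and without a count in WT, at least 31.6-fold higher in EV (adjusted p = 7.72e-10). By day 4 it stood at 85.2 ± 10.8 CPM in EV against 66.6 ± 9.65 CPM in WT, with an adjusted p of 0.119. Hnf4a, a nuclear receptor of visceral endoderm and liver, was low in both lines on day 1, with 0.936, 0.452 and 0.957 CPM in EV against 0.225, 0.215 and 0 CPM in WT. Its EV libraries lay above, and the ratio of 5.26 (counting interval 1.12 to 49.4) did not pass the test (adjusted p = 0.0778). On day 4 the order was the opposite, 2.02, 2.90 and 3.35 CPM in EV against 5.04, 5.32 and 5.08 CPM in WT, without overlap and with an adjusted p of 0.094.

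Pdgfra encodes the receptor for PDGF-A that marks primitive endoderm cells on their surface. On day 1 it was at 24.6, 25.5 and 22.0 CPM in EV against 0.450, 0 and 0 CPM in WT, a ratio of 163 (counting interval 44.8 to 1353, adjusted p = 2.67e-13). The day 0 ratio was 13.7 (counting interval 2.06 to 584, adjusted p = 0.006), from levels of 1.46, 0.707 and 0.942 CPM against 0, 0 and 0.226 CPM. By day 4 WT had passed EV, at 75.4, 79.8 and 72.9 CPM against 63.3, 47.4 and 55.9 CPM, and the difference of -0.45 did not pass the test (adjusted p = 0.0655, and 0.0198 by DESeq2) although the libraries did not overlap. Dab2, which links receptors of the megalin type to the endocytic machinery, reversed with the test on both sides. It was 24.3, 23.5 and 25.1 CPM in EV against 1.8, 1.72 and 1.12 CPM in WT on day 1 (3.95 ± 0.30, adjusted p = 3.59e-11). On day 4 it was 261, 289.5 and 281 CPM in EV against 569, 677 and 585 CPM in WT (-1.14 ± 0.15, adjusted p = 2.29e-06). The day 0 difference of Dab2 (1.34 ± 0.48, adjusted p = 0.0353) was lost without replicate 1 or 2 of either line, with an adjusted p of up to 0.199.

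**Figure D2:**
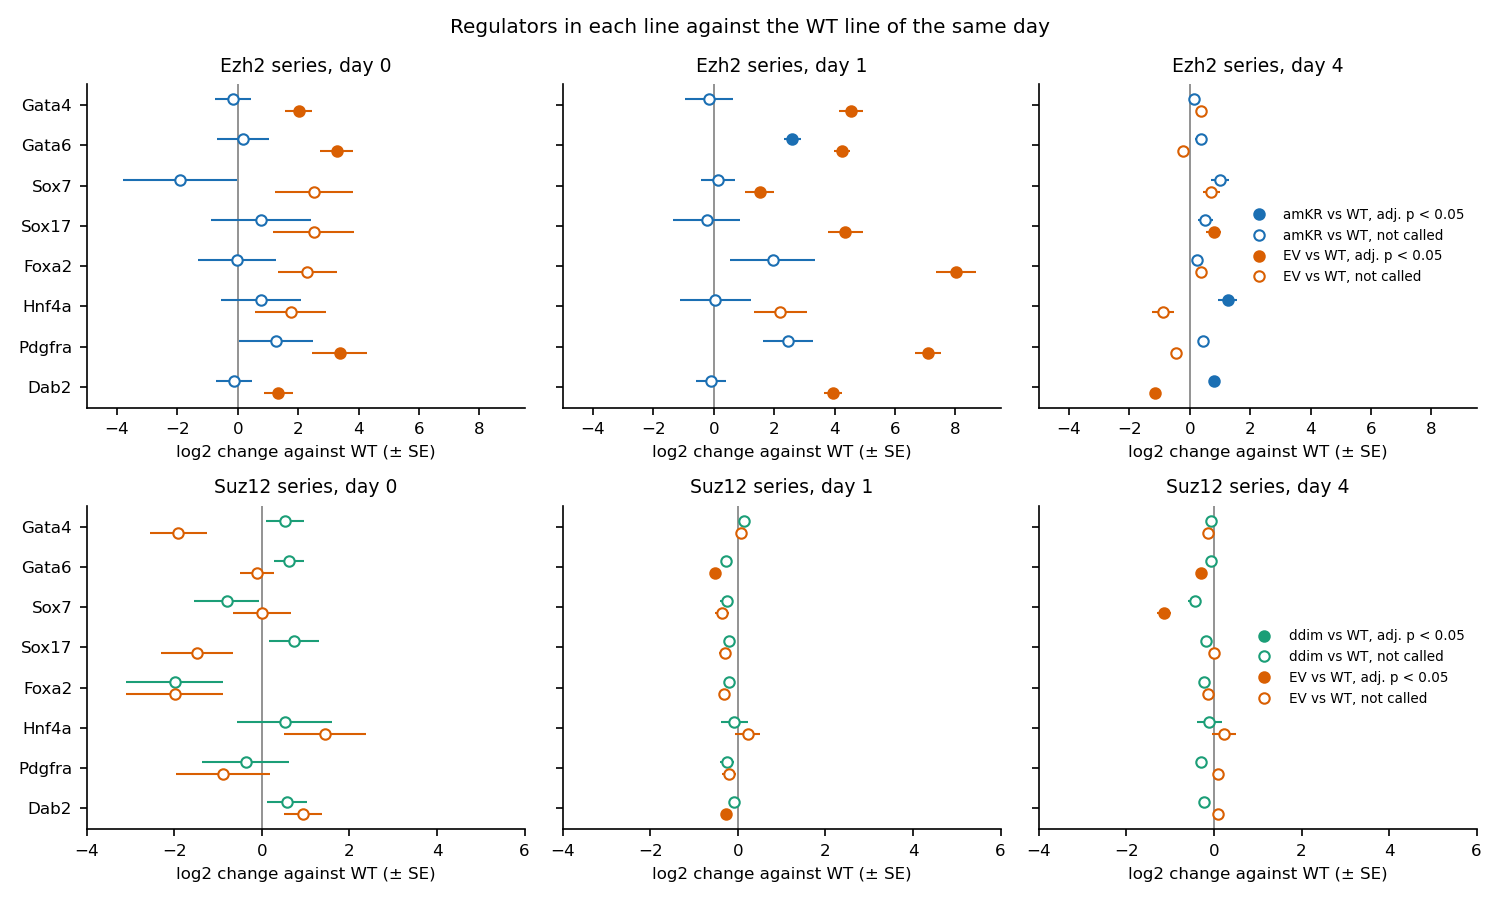
Log2 difference from WT of the same series for each of the 8 genes on days 0, 1 and 4; points are fitted values, bars 1 SE, and filled points passed adjusted p under 0.05. Points that involve a group with no count (Foxa2 on day 1 and Sox7 in amKR on day 0, in the Ezh2 series) depend on the prior count of the fit and give no size; EV values of the Ezh2 series on day 1 all lie to the right, while those of the Suz12 series on day 1 run from -0.52 to 0.22.

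The difference between EV and WT in the change from day 1 to day 4 was itself tested. It was called for 7 of the 8 genes, all in the direction of a smaller rise in EV, against 5.45% of all genes called in that direction. It was -4.46 ± 0.32 on the log2 scale for Gata6 (adjusted p = 5.25e-11) and -5.09 ± 0.33 for Dab2 (adjusted p = 9.10e-12). Sox7 was the gene not called (-0.81, adjusted p = 0.478). From day 0 to day 1 the difference was called for Gata4 and Dab2, a larger rise in EV, against 2.28% of all genes in that direction.

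Genes that act with the 8 moved as well. Of 8 tested partners of these regulators, 5 were called higher in EV on day 1 and 1 lower. Cubn, the cubilin receptor that DAB2 serves, was at 2.34 CPM in EV against 0.0718 in WT, and Amn, its membrane anchor, at 10.2 against 1.49 CPM (2.77 ± 0.38, adjusted p = 2.51e-06). Fgfr2, an FGF receptor of primitive endoderm, was at 8.21 CPM in EV against 0.147 CPM in WT (5.56 ± 0.72, adjusted p = 1.14e-06), among 5 genes higher and 1 lower of 16 in the FGF and ERK list. Of 21 tested visceral endoderm markers, 11 were higher and 1 lower in EV on day 1, and of 23 parietal endoderm markers 9 were higher and 1 lower. Dkk1, a secreted WNT antagonist of the visceral endoderm, stood at 6.61 against 0.0748 CPM (adjusted p = 3.97e-09), and Lamb1, a laminin chain of the parietal basement membrane, at 152 against 20.7 CPM (2.87 ± 0.14, adjusted p = 4.12e-15). Markers of other cell types moved beside them on day 1: 7 of 12 trophectoderm markers, 3 of 11 mesenchyme markers and 4 of 10 cardiac markers were called higher in EV. Mesenchyme markers summed to 26.2 to 30.2 CPM in EV and 14.0 to 21.8 CPM in WT, and definitive endoderm markers to 60.1 to 66.5 and 52.5 to 56.0 CPM. On day 4, when Dab2 was lower in EV, so were the receptor genes Cubn and Lrp2 (megalin), both chosen after their values were seen. Cubn was at 22.3 against 46.8 CPM (-1.07 ± 0.24, adjusted p = 0.0021) and Lrp2 at 119 against 191 CPM (-0.69 ± 0.14, adjusted p = 0.000893). The whole visceral list summed to 842 to 1121 CPM in EV and 914 to 1076 CPM in WT on that day. The parts of the trophectoderm, mesenchyme, cardiac and definitive endoderm cell types in the results for the 8 genes were not tested. In bulk libraries fewer cells of a type and less RNA per cell cannot be told apart.

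The amKR line was compared with WT, by label Ezh2 with the 3 lysine substitutions against Ezh2 without them. On day 0 none of the 8 genes was called by edgeR, none had an unadjusted p under 0.05 and none was called by DESeq2, while 5.1% of all genes were called in either direction. Log2 differences ran from -1.92 to 1.28 at levels mostly below 1 CPM, so the depth limits what could be seen. On day 1 Gata6 alone of the 8 was called, higher in amKR, against 1.37% of all genes. Its levels were 18.8, 17.6 and 27.2 CPM in amKR against 2.25, 4.31 and 3.81 CPM in WT, without overlap, and the difference was 2.61 ± 0.28 (adjusted p = 2.65e-06). In the line labelled EV the same day gave 68.1, 71.2 and 59.4 CPM, so that amKR lay between the other lines and apart from both. Pdgfra, at 0.232, 1.22 and 1.33 CPM in amKR, had a ratio of 6.29 (counting interval 1.40 to 57.8) that did not pass the test (adjusted p = 0.105). The other 6 genes had adjusted p-values of 0.548 or more.

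The other GATA, SOX and FOX factors were low in both lines on day 1. Gata4 was at 0.464, 0.244 and 0.664 CPM in amKR against 0, 1.08 and 0.449 CPM in WT, and Sox17 at 0.464, 0 and 0.443 CPM against 0, 0 and 1.12 CPM. Foxa2 had a count in 1 amKR library and in no WT library. Among companion genes on that day, Spry4 and Dusp4, feedback inhibitors that respond to ERK signalling, were called higher in amKR, the 2 of 16 FGF and ERK genes that were. Spry4 was at 113 against 56.3 CPM (1.00 ± 0.22, adjusted p = 0.018) and Dusp4 at 27.0 against 16.1 CPM (adjusted p = 0.0411). None of the 8 tested partners was called. Of the visceral markers, Spink1 (5.54 against 1.27 CPM) and Trf (22.5 against 8.99 CPM) were called higher. Whether the Gata6 difference between amKR and WT changed from day 0 to day 1 was not called for any of the 8 genes by edgeR or by DESeq2 (0% of all genes), Gata6 having the single unadjusted p under 0.05 (lowest adjusted p = 0.642). Its change from day 1 to day 4 did differ from that of WT (-2.25 ± 0.34, adjusted p = 0.00111), the only one of the 8 genes called, against 0.0923% of all genes in that direction.

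On day 4 amKR held more Dab2 and Hnf4a than WT, 2 of 8 genes called higher against 1.17% of all genes, with 0.454% called lower. Dab2 was at 1026, 1023 and 1112 CPM in amKR against 569, 677 and 585 CPM in WT, a difference of 0.79 ± 0.15 (adjusted p = 0.00358) without overlap. Hnf4a was at 10.3, 11.0 and 15.5 CPM against 5.04, 5.32 and 5.08 CPM (1.25 ± 0.32, adjusted p = 0.0395). Leaving out any of the 6 libraries ended the Hnf4a call (adjusted p up to 0.295), and not that of Dab2. Sox7 was at 19.3, 24.1 and 35.7 CPM against 15.3, 16.6 and 7.72 CPM, also without overlap (1.00 ± 0.29, adjusted p = 0.0833), and passed when no filter on low counts was used (adjusted p = 0.00515). Pdgfra was at 97.9, 94.0 and 116 CPM against 75.4, 79.8 and 72.9 CPM, without overlap and without a call (0.43 ± 0.17, adjusted p = 0.274). Foxa2 was the fifth gene whose libraries did not overlap, all 5 higher in amKR, as 8.82% of all genes were. Gata4, Gata6 and Sox17 overlapped between the lines, with differences of 0.15, 0.36 and 0.51.

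Several markers of visceral endoderm were higher beside Dab2 and Hnf4a on day 4. Of 21 tested visceral markers, 10 were called higher in amKR and none lower, among 165 genes of the whole table called higher. Apob and Apoa1, apolipoproteins secreted by visceral endoderm and liver and known targets of HNF4A, were at 83.3 ± 14.9 against 12.2 ± 5.46 CPM (2.77 ± 0.32, adjusted p = 8.1e-06) and at 16.8 ± 4.14 against 3.19 ± 1.66 CPM (2.40 ± 0.47, adjusted p = 0.00569). Afp, alpha-fetoprotein, was at 13.1 ± 2.99 against 1.18 ± 0.701 CPM (adjusted p = 0.000414). The receptors that DAB2 serves were higher as well: Cubn was at 82.6, 102 and 133 CPM in amKR against a mean of 46.8 ± 7.01 CPM in WT (1.18 ± 0.22, adjusted p = 0.00515). Lrp2 was at 359, 343 and 366 CPM against 198, 156 and 220 CPM (0.89 ± 0.14, adjusted p = 0.000414). Amn, named like Cubn and Lrp2 after its values were seen, was at 39.1 ± 6.10 against 22.0 ± 5.30 CPM and was not called (adjusted p = 0.075). The whole visceral list summed to 1809 to 1890 CPM in amKR and 914 to 1076 CPM in WT, and to 842 to 1121 CPM in the line labelled EV. On day 0 it already summed to 831 to 1280 CPM in WT and 1099 to 1265 CPM in amKR, so the sum alone does not measure visceral endoderm. Of 23 parietal markers 3 were called higher and none lower. Of 11 mesenchyme markers 2 were higher and 1 lower, with sums of 1244 to 1459 CPM in amKR and 998.5 to 1435 CPM in WT. No cardiac marker was called. Definitive endoderm markers summed to 40.8 to 52.4 CPM in amKR against 27.6 to 35.7 CPM in WT, with 1 of 8 tested (Eomes) called higher and Cer1 without a count in both lines. The part of these other cell types in the higher Dab2 and Hnf4a was not tested.

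**Figure D3:**
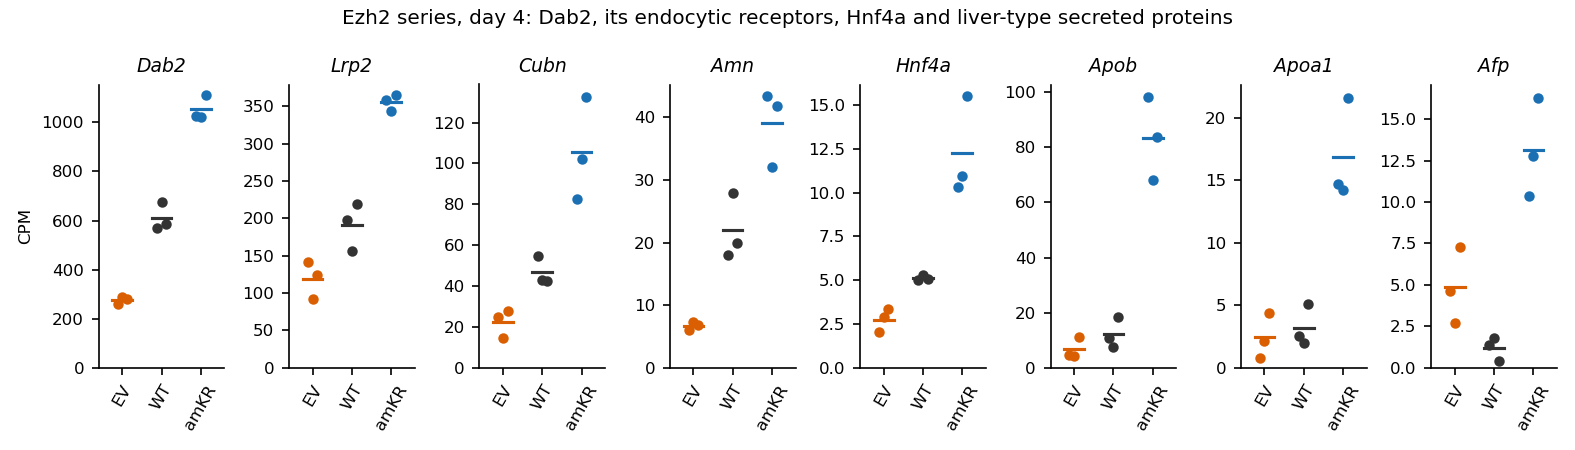
Day 4 levels (CPM) of Dab2, its receptors Lrp2 and Cubn with Amn, and of Hnf4a with Apob, Apoa1 and Afp, in the 3 lines of the Ezh2 series; points are single libraries and bars the mean of 3. For Dab2, Lrp2, Cubn and Hnf4a the amKR libraries are highest and those of the line labelled EV lowest.

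Against the line labelled EV, amKR was lower for Gata4, Gata6 and Dab2 on day 0 (3 of 8, against 11.2% of all genes) and for 6 of 8 genes on day 1 (9.4% of all genes). Gata6 on day 1 differed by -1.64 ± 0.20 (adjusted p = 7.87e-07), beside -4.69 for Gata4 and -4.03 for Dab2. Sox7 (-1.38, adjusted p = 0.0514, and 0.0309 by DESeq2) and Hnf4a (-2.15, adjusted p = 0.11) were not called on that day. On day 4, 4 of 8 were higher in amKR, against 5.28% of all genes. These were Dab2 (1.93 ± 0.15, adjusted p = 2.26e-10), Hnf4a (2.14 ± 0.35, adjusted p = 6.14e-05), Pdgfra (0.88 ± 0.17, adjusted p = 0.000611) and Gata6 (0.58 ± 0.18, adjusted p = 0.0302). The Gata6 call was lost without amKR replicate 2 or 3 or EV replicate 2 (adjusted p up to 0.210). On day 0 the Dab2 call (-1.47 ± 0.49, adjusted p = 0.0347) was lost without amKR replicate 1 or 2 or any EV replicate (adjusted p up to 0.184). For Dab2, Hnf4a and Pdgfra the day 4 order was amKR, WT, EV from high to low with no overlap between neighbours. This comparison and the preceding ones share libraries and are not independent.

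In the Suz12 series every member rose within the first day, in all 3 lines. All 8 were called higher on day 1 than on day 0 in WT, EV and ddim, against 32.9%, 32.7% and 32.6% of all genes. Of these log2 changes in WT the largest was that of Dab2, from 1.61, 2.14 and 0.531 CPM to 452, 433 and 388 CPM (8.19 ± 0.17). Gata6 went from 1.61, 2.41 and 2.92 CPM to 91.6, 106 and 108 CPM (5.44), and Gata4 from 0.806, 1.61 and 1.86 CPM to 59.6, 57.6 and 43.9 CPM (5.20). Sox7, Sox17, Foxa2 and Pdgfra changed by 5.15 to 6.73. Hnf4a rested on 2 counts on day 0 and had a ratio of 25.5 (counting interval 6.76 to 215). Markers of other cell types moved in the same day in WT: mesenchyme markers went from 15.0 to 23.6 CPM in sum to 130.2 to 137 CPM (10 of 14 called higher and 1 lower), cardiac markers from 21.8 to 29.5 to 71.6 to 76.8 CPM (5 of 10 higher and 1 lower) and definitive endoderm markers from 48.3 to 62.9 to 84.5 to 111 CPM (5 of 11 higher and 2 lower). Their part in the rise of the 8 genes was not tested.

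From day 1 to day 4 the members parted. In WT, Gata4, Gata6, Sox17, Foxa2 and Pdgfra were called higher again, 5 of 8 against 28.5% of all genes, with log2 changes of 1.02 for Foxa2 to 1.85 for Pdgfra. Sox7 (0.06, adjusted p = 0.743), Hnf4a (0.30, adjusted p = 0.386) and Dab2 (-0.13, adjusted p = 0.168) were not called. EV had 6 called higher (29.2% of all genes) and Sox7 called lower (28.9% of all genes called lower). Sox7 fell there from 19.4, 22.1 and 27.3 CPM to 15.0, 14.0 and 12.7 CPM (-0.72 ± 0.17, adjusted p = 0.000348). The sixth gene higher in EV was Dab2 (0.22 ± 0.08, adjusted p = 0.0231), a call that was lost without any 1 of the day 1 libraries or without day 4 replicate 1 or 2 (adjusted p up to 0.105). In ddim 5 were higher (27.9% of all genes) and Dab2 was lower (-0.27 ± 0.08, adjusted p = 0.00481, with 28.5% of all genes called lower).

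Day 1 was also expressed as a percentage of day 4 for each gene. In WT of the Ezh2 series it ran from 0 (Foxa2, which allows up to 0.332% at 3 counts) to 11.1% (Sox7) with a median of 1.02%. The line labelled EV ran from 8.23% to 52.5% with a median of 18.5%, and Gata6 was its highest. Lowest, median and highest in amKR were 0.103%, 0.843% and 11.3%, Gata6 again being the highest. The medians were 42.8%, 47.3% and 46.3% in EV, WT and ddim of the Suz12 series. Dab2 was at 110% in WT there and 0.254% in WT of the Ezh2 series. These shares were not tested between series.

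**Figure D4:**
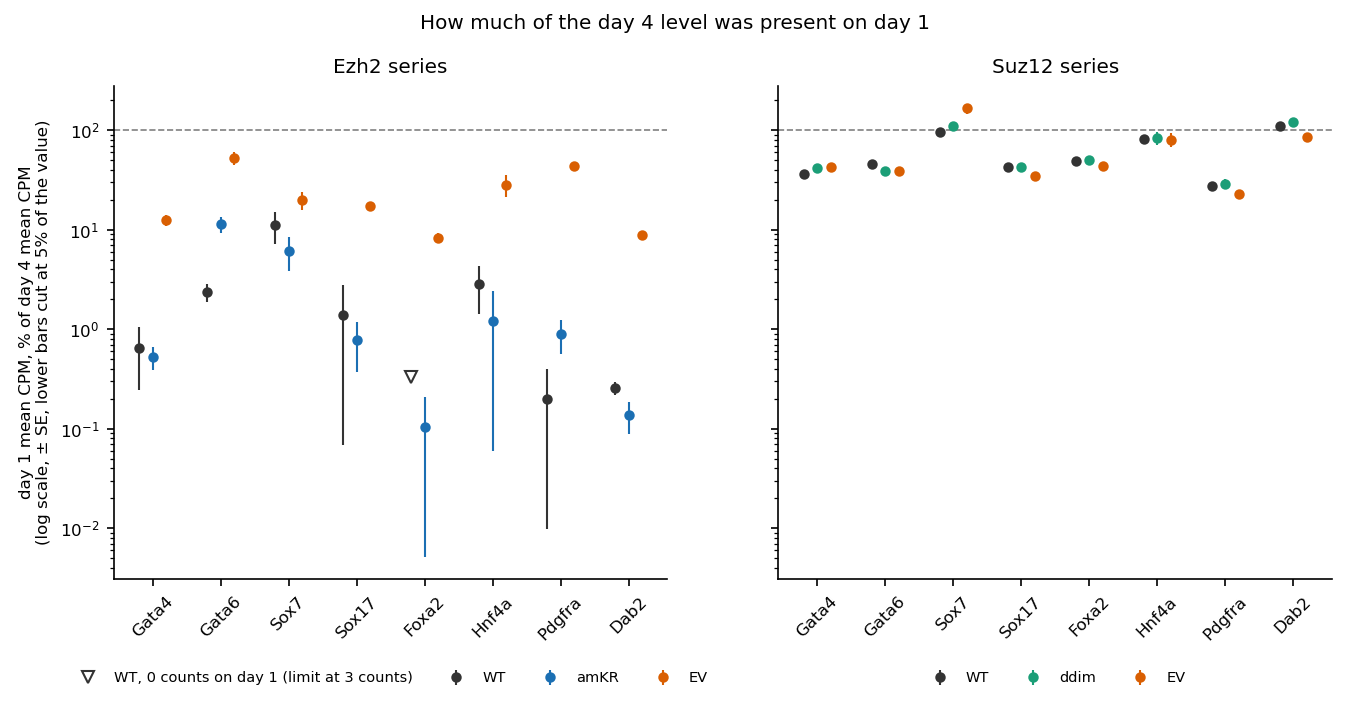
Day 1 level as a percentage of the day 4 level for each of the 8 genes in the 6 lines, from means of 3 libraries. Genes of the WT and amKR lines of the Ezh2 series lie at or below 11.3%, those of the Suz12 series between 22.7% and 165%.

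In the Suz12 series EV was compared with WT for the same genes, by label an empty vector against SUZ12. Few members differed. None was called on day 0 by edgeR or by DESeq2, with 10.8% of all genes called in either direction. Gata4 and Dab2 had an unadjusted p under 0.05, Gata4 being at 0.267, 0.267 and 0.541 CPM in EV against 0.806, 1.61 and 1.86 CPM in WT (adjusted p = 0.051). On day 1 Gata6 and Dab2 were called lower in EV, 2 of 8 against 4.12% of all genes. Gata6 was at 71.1, 67.8 and 75 CPM in EV against 91.6, 106 and 108 CPM in WT (-0.52 ± 0.09, adjusted p = 0.000167). Dab2 was at 356, 354 and 347 CPM against 452, 433 and 388 CPM (-0.27 ± 0.08, adjusted p = 0.0358), without overlap. The Dab2 call was lost without any 1 EV library or WT replicate 1 or 2 (adjusted p up to 0.132). The EV libraries lay below those of WT for 5 of the 8 genes on day 1, as they did for 11.6% of all genes. By day 4 Gata6 and Sox7 were called lower in EV, against 3.73% of all genes. Sox7 was at 15.0, 14.0 and 12.7 CPM against 30.5, 29.8 and 32.1 CPM (-1.15 ± 0.16, adjusted p = 2.71e-06). Gata6 was at 169, 184 and 195 CPM against 223, 221 and 231 CPM (-0.30 ± 0.08, adjusted p = 0.0146), a call lost without EV replicate 1 or WT replicate 3 (adjusted p up to 0.117). The change from day 1 to day 4 differed between the lines for Sox7 alone (-0.78 ± 0.23, adjusted p = 0.0431, with 1.72% of all genes called in that direction), a call that ended without 9 of the 12 libraries in turn (adjusted p up to 0.154). From day 0 to day 1 it differed for none by edgeR or DESeq2 (3.34% of all genes in either direction), Gata4 and Dab2 having an unadjusted p under 0.05.

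Parietal endoderm markers moved with Gata6 and Sox7, while 3.97% and 3.66% of all genes were called higher in EV on days 1 and 4. On day 1, 11 of 23 were called lower in EV and none higher, among them the basement membrane genes Lama1 (113 against 176 CPM, -0.63) and Nid2 (-0.97). On day 4, 14 of 23 were lower and none higher, with the keratin gene Krt8 at 201 against 352 CPM (-0.81). Visceral markers were 7 lower and 2 higher of 21 on day 1, Ttr (-0.96) and Cubn (-0.88) being lower, and 1 lower and 6 higher on day 4. Fgfr2 was at 41.9 CPM in EV against 71.3 CPM in WT on day 1 (-0.77). Pluripotency markers were higher in EV on the same days, 5 of 14 on day 1 and 4 of 14 on day 4. Nanog was at 32.8 against 8.78 CPM on day 1 (1.91 ± 0.20, adjusted p = 1.78e-09). The summed level of that list was 524 to 538 CPM in EV and 384 to 414 CPM in WT on day 1, and its part in the lower Gata6 and Dab2 was not tested.

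The ddim line did not differ from WT by the test for any of the 8 genes on any day, by edgeR or by DESeq2, and hardly any gene of the table did: 0%, 0.0623% and 0.145% of all genes were called on days 0, 1 and 4. At an unadjusted p under 0.05 there were 0, 1 and 4 of the 8. The gene on day 1 was Gata6, at 94.8, 79.2 and 77.9 CPM in ddim against 91.6, 106 and 108 CPM in WT (adjusted p = 0.277). On day 4 they were Sox7, Foxa2, Pdgfra and Dab2, all lower in ddim, with a lowest adjusted p of 0.339. Sox7 was at 22.7, 24.4 and 20.8 CPM against 30.5, 29.8 and 32.1 CPM in WT (-0.44 ± 0.15), between WT and EV and overlapping neither. Dab2 was at 314, 347 and 324 CPM against 408, 378 and 375 CPM (-0.24). The ddim libraries lay below those of WT for 5 of the 8 genes on day 4, as they did for 8.75% of all genes. The change over time did not differ between ddim and WT for any member (0% of all genes). From day 0 to day 1 Gata6 had an unadjusted p under 0.05, from day 1 to day 4 none of the 8 did, and DESeq2 called none.

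Between ddim and EV, 2 of 8 genes were higher in ddim on day 0, against 5.75% of all genes. Gata4 was at 1.82, 1.61 and 2.78 CPM against 0.267, 0.267 and 0.541 CPM (2.43 ± 0.60, adjusted p = 0.00438). Sox17 rested on 3 counts in EV, with a ratio of 5.01 (counting interval 1.42 to 27.0, adjusted p = 0.039), a call lost without EV replicate 1 or 3 or ddim replicate 1 or 2 (adjusted p up to 0.238). With only the compared libraries fitted, 0 of the 8 were called on day 0, where Gata4 and Sox17 fell under the low-count filter and were not tested. On day 1 none was called by edgeR or DESeq2 (6.16% of all genes in either direction), Gata6 and Dab2 had an unadjusted p under 0.05, and the lowest adjusted p was 0.143. On day 4 Sox7 (0.70 ± 0.17, adjusted p = 0.00374) and Gata6 (0.24, adjusted p = 0.0491) were called higher in ddim, against 5.48% of all genes. Dab2 (-0.32, adjusted p = 0.00705) and Pdgfra (-0.39, adjusted p = 0.0185) were called lower, against 5.94%. The Gata6 call was lost without EV replicate 1 or 2 or any ddim library (adjusted p up to 0.231), and that of Pdgfra without EV replicate 1 or 3 or ddim replicate 1 or 2 (adjusted p up to 0.149).

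The companion lists give the setting in which the 8 genes moved. Of all genes, 24.2% and 29.2% were called lower from day 0 to day 1 in WT of the Ezh2 and Suz12 series, and 27.4% and 29.4% from day 1 to day 4. From day 0 to day 1 in WT, 5 of 21 visceral markers were called higher and 2 lower in the Ezh2 series, and 17 and 2 in the Suz12 series. Parietal markers were 8 higher and 6 lower of 23 against 19 and 2. Retinoic acid targets were 3 higher and 2 lower of 12 in the Ezh2 series and 11 and 1 in the Suz12 series, where Hoxb1 went from 0.267 to 339 CPM. Pluripotency markers were 2 higher and 11 lower of 14 in the Ezh2 series and all 14 lower in the Suz12 series. Fgf4, the FGF that the epiblast sends to primitive endoderm, fell in the Suz12 WT line from 190.5 to 3.69 CPM on day 1. The Ezh2 WT line still held Fgf4 at 125 CPM on day 1 and 0.333 CPM on day 4, and its Fgfr2 went from 0.147 to 32.6 CPM. Between days 1 and 4, 16 visceral markers were higher and 2 lower in WT of the Ezh2 series, against 8 and 12 in the Suz12 series. Parietal markers were 22 higher and none lower, and 21 and 1. Mesenchyme markers rose in those days as well, 10 higher and 1 lower of 11 in the Ezh2 series and 13 and 1 of 14 in the Suz12 series, to day 4 sums in WT of 998.5 to 1435 CPM and of 5500 to 6046 CPM. Cardiac markers were 8 higher and none lower of 10 in WT of the Ezh2 series, and neural markers 7 higher and none lower. Part of the day 4 level of Pdgfra, Gata4, Gata6 or Foxa2 from such cells was not tested.

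**Figure D5:**
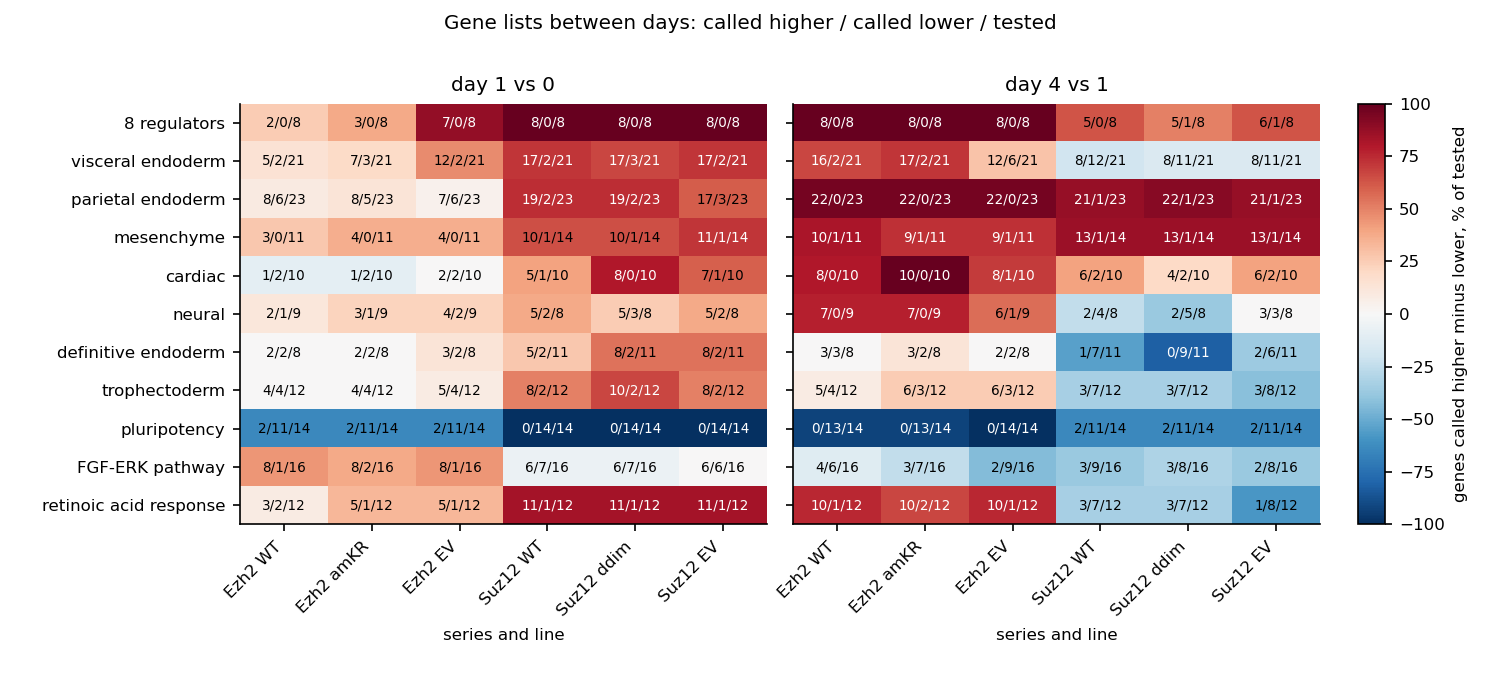
Numbers of genes called higher and lower in companion lists between days 0 and 1 and between days 1 and 4, for the 6 lines, with the 8 regulators on top. In WT 19 parietal markers are higher by day 1 and 21 from day 1 to day 4 in the Suz12 series, against 8 and 22 in the Ezh2 series; of the visceral markers 17 and then 8 are higher in the Suz12 series, against 5 and 16.

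For each member the genes with the most similar course over the 9 groups of each series were sought among 10693 genes, by the lower of the Pearson correlations on log2 group means in the 2 series. The groups share lines and days, so the values describe courses only. Dab2 was closest to Cobll1 (0.992), Tfec (0.990) and Fgfr3 (0.989). Foxa2 had Cobll1 (0.987), Chst15, Cdh6 and Fgfr3 (0.984) nearest to it, and Hnf4a had Tfec (0.979) and Opn3 (0.973). For Gata4 they were Chst15 (0.991) and Lrif1 (0.986), for Gata6 Slc40a1 (0.981) and Cdkn1c (0.971). Sox7 was closest to Tuba1a (0.986), Sox17 to Adamts15 (0.983), and Pdgfra to Igf2os (0.979), Runx1 (0.978) and Adamts15 (0.977). Lamb1 (0.973) was also among the 5 closest to Pdgfra. These neighbours depend on the prior count added before the logarithm: with 0.5 in place of 2, between 2 and 4 of the 5 closest stayed for each gene, and another gene was closest to Gata4 (Egflam), Sox17 (Scarf2), Foxa2 (Chst15), Hnf4a (P4ha3) and Pdgfra (Dpysl3). Adamts15 was then no longer among the 5 of Sox17 or Pdgfra, nor Igf2os among those of Pdgfra.

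The authors' deposited table of up and down lists, whose test is not given in the sources used here, holds several of the 8 genes. In its comparison named WTvsKO, the authors' deposited table has Gata4 and Gata6 up on day 0, Gata4, Gata6, Sox17, Foxa2, Pdgfra and Dab2 up on day 1, and Dab2 down on day 4. In WTvsamKR, the authors' deposited table has Gata6 up on day 1 and Hnf4a up on day 4.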

How the data were processed

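RNA was measured with a 3′ tag kit (QuantSeq FWD), per the labels' protocols. The authors deposited 1 table of raw read counts per gene for each of 54 libraries and 12 lists of genes named up or down. The genome build is mm10 per the submitters' processing notes, and aligner, counter, strand setting and annotation are not given in the sources used here. Each library held 7996693 to 8002940 reads in all (Ezh2 series) or 6997715 to 7001555 (Suz12 series). Rows naming no gene were left out: reads in no feature made up 14.5% to 22.7% and 13.4% to 19.8%, ambiguous reads 2.87% to 4.05% and 3.50% to 4.22%, and reads not aligned uniquely 16.9% to 22.1% and 17.1% to 23.3%. Of 55487 identifiers, 55141 were matched to a symbol. Reads without molecular identifiers are not independent molecules, so counting intervals (exact, 95%) and floors cover counting error only.

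From these counts, each series was fitted alone over its 27 libraries with edgeR 4.0.16 in R 4.3.3 (low-count filter, TMM scaling, quasi-likelihood test of group means), over 14086 genes in the Ezh2 and 14442 in the Suz12 series. All 8 genes passed the filter in both series. The filter was run over all 9 groups of a series, so a gene high on day 4 alone could pass it. An SE is the log2 change divided by the square root of F. The script was tested on simulated data with known changes. Alternatives were DESeq2 1.42.0, other size factors, no filter, only the compared libraries, a replicate block, and each library left out. Figures were drawn with Python 3.11.15 and matplotlib 3.10.9.

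The 8 genes and the 13 companion lists were chosen with earlier results of these data known. From the companion lists, genes were named when they were called and had one of the 3 largest absolute log2 changes of their list; other companion genes in the text, among them Lrp2, Cubn and Amn on day 4, were chosen after their values were seen. Similar courses were sought on log2 CPM with a prior count of 2, among genes of at least 5 CPM in 1 group of each series, and the 5 closest were kept for each gene.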

Additional observations from a re-analysis of the deposited data

Results flagged for a closer look

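For 11 results the change over time differed between lines by a test of the difference itself, in edgeR's quasi-likelihood test with Benjamini-Hochberg adjustment. Values are log2 differences of changes ± SE, with 3 libraries in each of 4 groups.

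From day 0 to day 1, Gata4 and Dab2 rose more in the line labelled EV of the Ezh2 series than in WT, 2 of 8 genes against 2.28% of all genes in that direction. The difference was 2.52 ± 0.74 for Gata4 (adjusted p = 0.0475) and 2.61 ± 0.66 for Dab2 (adjusted p = 0.0194). Gata4 was not called without 8 of the 12 libraries, each left out in turn (adjusted p up to 0.293), nor Dab2 without WT day 0 replicate 1 or 3 or WT day 1 replicate 3 (adjusted p up to 0.258).

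From day 1 to day 4, 7 of the 8 genes rose less in that line than in WT. The difference was -4.16 ± 0.47 for Gata4 (adjusted p = 3.87e-07), -4.46 ± 0.32 for Gata6 (adjusted p = 5.25e-11) and -3.57 ± 0.67 for Sox17 (adjusted p = 0.000607). For Pdgfra it was -7.56 ± 0.48 (adjusted p = 6.85e-12) and for Dab2 -5.09 ± 0.33 (adjusted p = 9.10e-12). Foxa2 had -7.66 ± 0.75 (adjusted p = 5.61e-08), a value that depends on the prior count of the fit because WT had no Foxa2 count on day 1. Hnf4a had -3.10 ± 0.96 (adjusted p = 0.0404) and was not called without 10 of the 12 libraries, each left out in turn (adjusted p up to 0.143).

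Gata6 rose less from day 1 to day 4 in amKR than in WT, by -2.25 ± 0.34 (adjusted p = 0.00111), and kept the call without each of the 12 libraries in turn.

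In the Suz12 series, Sox7 fell from day 1 to day 4 in EV (-0.72) and was not called in WT (0.06), a difference of -0.78 ± 0.23 (adjusted p = 0.0431), 1 of 8 genes against 1.72% of all genes in that direction. The call ended without 9 of the 12 libraries, each left out in turn (adjusted p up to 0.154). From day 0 to day 1 no gene of the 8 differed between these lines by edgeR or DESeq2, Gata4 and Dab2 having an unadjusted p under 0.05 (lowest adjusted p = 0.0896, with 3.34% of all genes called in either direction).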

How the results depend on the processing

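Of 304 values of the 8 genes (8 genes in 38 comparisons), 297 kept their direction and their side of the threshold under DESeq2, 302 under other size factors, 296 with no filter on low counts, 303 with a replicate block and with only the compared libraries 224 of the 230 that could be had. No called value changed sign; among values called neither way, 49 turned sign in at least 1 refit, 107 of these 113 turns with a library left out. Replicate numbers did not pair the libraries: in 2 of 36 pairs of groups of the Ezh2 series and 0 of 36 of the Suz12 series were all 3 same-numbered correlations over 0.1 (medians 0.00599 and -0.00137), and the block moved the call of Gata6 between ddim and EV on day 4 to an adjusted p of 0.0531. Counts of called members that moved by over 1.5 times were as follows. Where the filter is not named, the cause was not tested. Fitting the compared libraries alone gave 2 for EV against WT on day 0 of the Ezh2 series (4 in the common fit), 0 for WT (2) and 1 for amKR (3) from day 0 to 1, where members fall under the filter, and 1 for the EV and WT difference from day 0 to 1 (2), as did the other size factors with 1. In the Suz12 series it gave 1 for EV against WT on day 1 (2) and 2 for their difference from day 1 to 4 (1, and 2 by DESeq2). For ddim against EV on day 0 it gave 0 (2, and 1 with no filter or DESeq2), where Gata4 and Sox17 fell under the filter. With 1 library left out, the count ran from 1 to 1 for amKR against WT on day 4, 1 to 3 for EV against WT on day 4 and 0 to 2 for their difference from day 0 to 1 in the Ezh2 series. It ran from 0 to 1, 1 to 3 and 1 to 2 for EV against WT on days 0, 1 and 4 of the Suz12 series, 0 to 1 and 0 to 2 for their differences from day 0 to 1 and day 1 to 4, and 1 to 2 and 2 to 3 for ddim against EV on days 0 and 4. Onset by day 1 held for 4 members of amKR at 0.5 CPM (1 at 1 CPM) and for 1 and 0 of WT at 2 and 5 CPM (2). Over all genes, calls of amKR against WT were 1754 on day 0 with the compared libraries alone (718 in the common fit), and on day 1 605, 718 with no filter and 444 by DESeq2 (282). The amKR and WT difference had 7 by DESeq2, 42 with no filter and 1 with the block from day 0 to 1 (0), and 67 by DESeq2 and 134 with no filter from day 1 to 4 (31). EV against WT on day 4 had 1411 (2533) in the Ezh2 series and, on days 1 and 4 of the Suz12 series, 592 (1168) and 1806 (1068), all with the compared libraries alone. For ddim against WT no filter gave 2, 138 and 59 on days 0, 1 and 4 (0, 9 and 21), the compared libraries alone 0 and 143 on days 1 and 4, and the changes over time 16 and 34 with no filter (0 and 0). For ddim against EV on day 0 the compared libraries alone gave 1115 (1685). Values that rest on 0 to 3 counts in a group, on day 0 and on day 1 of the Ezh2 series, are limited by depth.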

Other observations

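Pdgfa and Pdgfb, which encode ligands of the receptor encoded by Pdgfra, differed between the line labelled EV and WT on day 4 of the Ezh2 series. Parent cells and transgene cannot be told apart there. Pdgfa was at 96.7 CPM in the line labelled EV and 36.5 CPM in WT (log2 difference 1.40), and Pdgfb at 6.31 and 0.855 CPM (2.84), both called higher in EV by edgeR, while Pdgfra was not called and its EV libraries lay below those of WT. Among paralogs of the 8 regulators, Gata2, a GATA factor of blood and trophoblast, was at 3.11 CPM in EV against 0.296 CPM in WT on day 1 (3.28), 1 of 2 genes called higher and 1 lower of 8. In the Suz12 series the paralogs Gata5 and Foxa1 rose beside the members in WT from day 0 to day 1, Gata5 from 0 to 2.03 CPM and Foxa1 from 0.445 to 14.4 CPM.

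Genes of retinoic acid metabolism differed between lines of the Suz12 series on day 4. Cyp26b1, which encodes an enzyme that degrades retinoic acid, was at 64.5 CPM in EV against 240.0 CPM in WT (-1.90). Of 12 retinoic acid genes, 3 were called lower in EV and none higher. In ddim, Cyp26b1 (0.54, adjusted p = 0.019) and Dhrs3 (0.59, adjusted p = 0.00381) were called higher than in WT on that day, among the 21 genes of the whole table that were called. Etv5, a target of FGF and ERK signalling, was the companion gene called on day 1 between those lines, at 57.8 CPM in ddim and 79.3 CPM in WT (-0.46 ± 0.09, adjusted p = 0.016).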
